A study of Mus musculus with 18 samples.

Results

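The peptide genes of the lateral hypothalamus were followed in the hypothalamus of Schlager hypertensive BPH/2J mice and normotensive BPN/3J mice. The set held 7 genes, namely *Hcrt*, *Pmch*, *Gal*, *Cartpt*, *Pdyn*, *Nts* and the homeobox gene *Lhx9*. The set follows the anatomy of these neurons and was drawn up with earlier results of these data known, and a gene entered through the symbol that the array platform gives its probeset (a set of probes for a single transcript). Each gene had exactly 1 probeset, so 7 of the 34760 probesets on the array, and 7 of the 19937 genes with a symbol of their own, are described.

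The 18 samples were total RNA of single mice, hybridized to Affymetrix Mouse Gene 1.0 ST arrays. Male mice of both strains had been killed in the inactive period, the time called 'trough' BP (n = 3 per strain, 18 weeks old by the sample labels), or in the active period, called 'peak' BP (n = 6 per strain, 26 weeks old). Time of day and age differed together between the 'trough' and 'peak' groups and cannot be told apart. The BPH/2J strain is an inbred line with raised blood pressure and a large day-night difference in pressure, and BPN/3J is its normotensive control line, so the strains differ across the genome and not at a single locus. The labels give the tissue as whole hypothalamus, whereas the study's methods describe dissected paraventricular and dorsomedial nuclei, and the lateral hypothalamus lies beside these nuclei. The 3 arrays titled BPN at 'trough' carry BPH/2J in their strain label, while their title and blood pressure label say normotensive, and they are treated here as BPN/3J.

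Orexin (hypocretin, from *Hcrt*) and melanin-concentrating hormone (MCH, from *Pmch*) are made by separate neurons of the lateral hypothalamus that project widely through the brain. Orexin neurons fire mainly in wakefulness, stimulate arousal and feeding, and raise sympathetic outflow and blood pressure when driven. MCH neurons are most active in sleep and promote feeding and energy storage. Many orexin neurons also make dynorphin (from *Pdyn*), many MCH neurons also make CART (from *Cartpt*), and galanin (*Gal*) and neurotensin (*Nts*) mark a further set of lateral hypothalamic cells. *Lhx9* encodes a LIM homeodomain transcription factor that is used in the development of orexin neurons and is also expressed in the thalamus.

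The stretches upstream of the start of *Hcrt* and *Pmch* are shown because these genes differed between 'peak' and 'trough' in BPH/2J. That of *Nts* is shown because, among the 7 genes, its signal followed *Pmch* most closely between mice. Each is the 250 bases before the RefSeq transcript start, read 5′ to 3′ on the gene's strand from GRCm38.p6, with capitals on the TATA box TATAAA, the AP-1 motif TGANTCA and, in *Nts*, the letters TGACG of the cyclic AMP response element read on the opposite strand. The *Hcrt* stretch lies at chr11:100762932-100763181 (minus strand), that of *Pmch* at chr10:88090822-88091071 (plus strand) and that of *Nts* at chr10:102490419-102490668 (minus strand).
Hcrt: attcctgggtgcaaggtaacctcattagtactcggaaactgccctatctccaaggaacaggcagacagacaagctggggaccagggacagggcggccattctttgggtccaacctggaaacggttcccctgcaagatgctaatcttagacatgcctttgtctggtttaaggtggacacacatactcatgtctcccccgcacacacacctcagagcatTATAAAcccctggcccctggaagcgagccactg
Pmch: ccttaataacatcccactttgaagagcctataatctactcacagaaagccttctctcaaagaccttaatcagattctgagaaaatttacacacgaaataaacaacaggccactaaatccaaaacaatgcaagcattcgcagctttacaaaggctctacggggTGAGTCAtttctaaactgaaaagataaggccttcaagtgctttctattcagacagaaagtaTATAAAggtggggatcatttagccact
Nts: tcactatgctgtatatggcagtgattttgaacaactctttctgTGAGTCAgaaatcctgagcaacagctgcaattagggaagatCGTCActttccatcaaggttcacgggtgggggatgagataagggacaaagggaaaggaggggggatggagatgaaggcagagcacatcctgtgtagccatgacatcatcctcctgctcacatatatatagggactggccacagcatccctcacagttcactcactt
*Hcrt* and *Pmch* both held TATAAA on the gene's strand, beginning 33 and 27 bases before the start. These letters were in 7.59% of the 32851 upstream stretches of this length in the RefSeq table. *Pmch* and *Nts* both held TGAGTCA, beginning 88 and 207 bases before the start, and TGANTCA on either strand was in 6.75% of all stretches. *Cartpt* held the cyclic AMP response element TGACGTCA, beginning 112 bases before its start (1.55% of all stretches), and *Nts* the letters TGACG on the opposite strand. TGACG on either strand was in 17.8% of all stretches, and *Cartpt* holds it within its full element. The E-box CACGTG (6.02%), the D-box TTATGTAA (0.819%) and the ROR core motif AGGTCA (14.0%), all searched on both strands, were in none of the 8 stretches of the 7 genes (*Pdyn* has 2 starts). A match of letters is a description of the sequence and was not tied to any level below.

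All values below are log2 RMA signals as deposited (RMA corrects background, equalizes the arrays' distributions and sums the probes of a probeset), so a difference of 1 is a 2-fold change. Differences were tested with limma, fitted to all probesets with 4 group means, and a difference was called at a Benjamini-Hochberg adjusted p under 0.05 over all 34760 probesets. In bulk tissue, fewer cells of a type and less RNA per cell cannot be told apart. Array medians ran from 6.17 to 6.42, and the mean correlation of an array with the others was lowest for BPN/3J 'peak' mouse 11 (0.963) and BPN/3J 'trough' mouse 1 (0.968). Defining markers of neighbouring tissue varied between mice. The mean of 8 choroid plexus and ependyma markers, each centred over all arrays, spanned -1.0 to 1.15 in the BPH/2J 'peak' group and -1.09 to 1.25 in the BPN/3J 'peak' group. The mean of 7 pituitary markers was 2.20 in BPN/3J 'trough' mouse 3, and between -0.42 and 0.45 in the other 17 mice. The choroid plexus markers had no called difference in any of the 5 comparisons. Of the 7 pituitary markers, 3 were called lower at 'peak' than at 'trough' in BPN/3J (*Gh*, *Prl* and *Lhb*). In that comparison 25.3% of all probesets were called in either direction. The BPN/3J 'trough' values ran from 6.83 to 12.40 for *Gh* (median 7.44) and from 4.83 to 8.56 for *Prl* (median 5.13).

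*Hcrt*, the precursor of both orexins, was highest in BPH/2J mice at 'peak' BP. Its signal there was 10.21, 10.22, 9.22, 9.50, 10.81 and 11.04 in mice 4 to 9, and 8.74, 8.88 and 9.02 in mice 1 to 3 of the same strain at 'trough'. In BPN/3J it was 9.30, 9.35, 9.12, 9.07, 9.36 and 7.71 at 'peak' (mice 5, 6, 7, 8, 10 and 11) and 8.65, 8.64 and 8.91 at 'trough'. All 6 hypertensive mice at 'peak' lay above all 3 at 'trough', whereas the normotensive groups overlapped through mouse 11. Of the 12 'peak' mice, the 5 with the highest *Hcrt* were all BPH/2J, but BPH/2J mouse 6 lay below 3 BPN/3J mice.

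In BPH/2J, *Hcrt* was 1.29 higher at 'peak' than at 'trough' on the log2 scale (SE 0.37, 95% interval 0.50 to 2.08, 2.44-fold, limma adjusted p = 0.0409). In BPN/3J the same difference was 0.25 (SE 0.37, interval -0.54 to 1.04, limma adjusted p = 0.638). At 'peak', *Hcrt* was 1.18 higher in BPH/2J than in BPN/3J (SE 0.30, interval 0.54 to 1.82, 2.27-fold), with a limma adjusted p of 0.0758 that missed the threshold. At 'trough' the strain difference was 0.15 (SE 0.43, limma adjusted p = 0.927). The size of the BPH/2J difference moved with the mice. With only the lower-numbered 'peak' mice (4 to 7 in BPH/2J and 5 to 8 in BPN/3J) it was 0.91. With only the higher-numbered (8 and 9 in BPH/2J, 10 and 11 in BPN/3J) it was 2.05, and both were called. The higher-numbered mice were, here and below, a choice made after seeing the data. Mice 8 and 9 had the highest *Hcrt* values of their group (10.81 and 11.04), so the larger difference follows from that choice. The *Hcrt* call in BPH/2J was lost when only the 2 BPH/2J groups were fitted (limma adjusted p = 0.0543) and in 9 of the 18 fits that each left out 1 mouse (limma adjusted p 0.0509 to 0.165): without any of BPH/2J 'trough' mice 1, 2 and 3, BPH/2J 'peak' mice 4, 5, 8 and 9, BPN/3J 'trough' mouse 3 or BPN/3J 'peak' mouse 8.

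**Figure D1:**
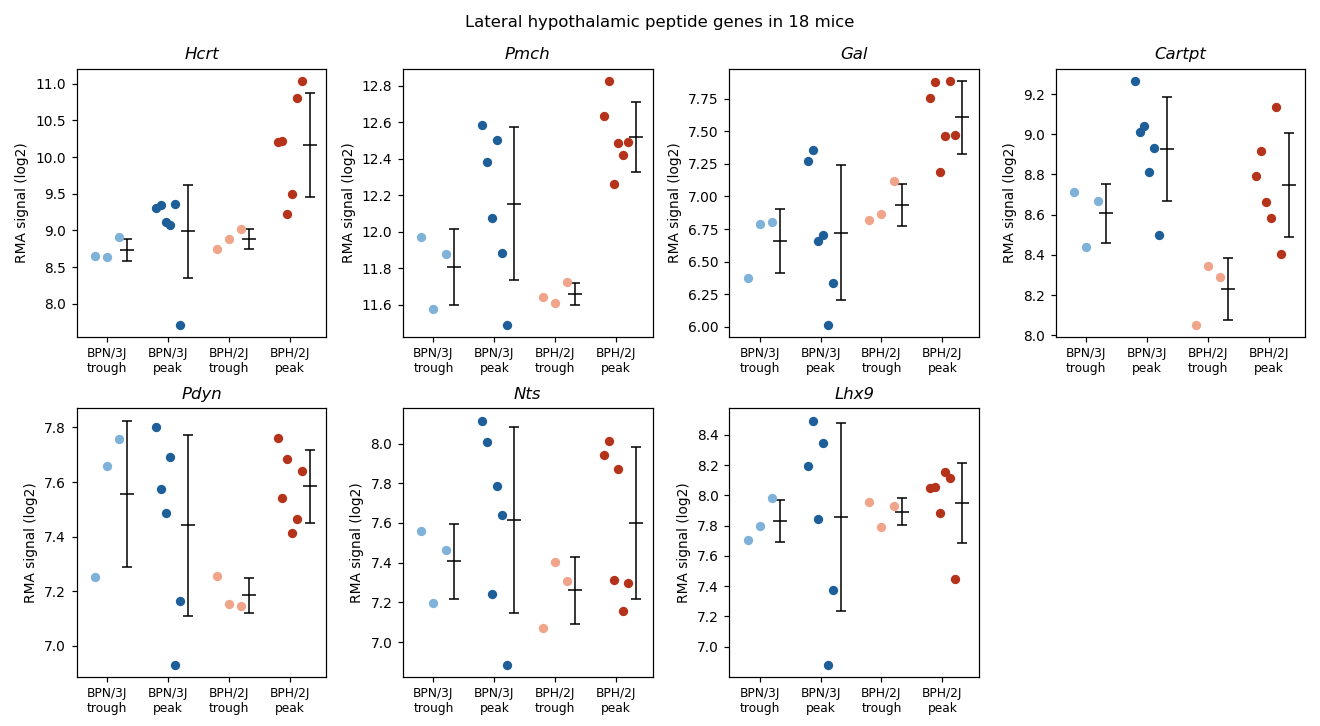
Log2 RMA signal (vertical axes) of the 7 genes in each mouse, by strain and time (horizontal axes, in order of mouse number within a group). Black bars give the group mean and SD (n = 3 at 'trough', n = 6 at 'peak'). All 6 BPH/2J 'peak' points of *Hcrt* and *Pmch* lie above the 3 BPH/2J 'trough' points, and BPN/3J 'peak' mouse 11 is the lowest *Hcrt* point at 7.71.

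*Pmch*, the MCH precursor, was also higher at 'peak' than at 'trough' in the hypertensive strain, and it varied less between mice than *Hcrt*. The BPH/2J values were 12.63, 12.83, 12.26, 12.48, 12.42 and 12.49 at 'peak' and 11.64, 11.61 and 11.73 at 'trough'. The BPN/3J values were 12.58, 12.38, 12.08, 12.50, 11.88 and 11.49 at 'peak' and 11.97, 11.57 and 11.88 at 'trough'. The BPH/2J groups were separate and the BPN/3J groups overlapped, with mice 10 and 11 within or below the 'trough' range. The 'peak' minus 'trough' difference was 0.86 in BPH/2J (SE 0.19, interval 0.45 to 1.26, 1.81-fold, limma adjusted p = 0.0104) and 0.35 in BPN/3J (SE 0.19, interval -0.06 to 0.75, limma adjusted p = 0.188). The BPH/2J call held in 17 of the 18 fits that left out 1 mouse and was lost without BPH/2J 'trough' mouse 1 (limma adjusted p = 0.0568). Among the BPN/3J mice, the lower-numbered 'peak' mice alone gave 0.58, which was called (limma adjusted p = 0.00942), and the 2 higher-numbered mice alone gave -0.12. Strain differences of *Pmch* were 0.37 at 'peak' (limma adjusted p = 0.425) and -0.15 at 'trough' (limma adjusted p = 0.834).

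*Gal*, which encodes galanin, was the member whose strain difference at 'peak' passed the test. The BPH/2J mice had 7.75, 7.88, 7.19, 7.46, 7.89 and 7.47 at 'peak' and 6.82, 6.87 and 7.12 at 'trough'. The BPN/3J mice had 7.27, 7.36, 6.66, 6.70, 6.02 and 6.34 at 'peak' and 6.37, 6.79 and 6.81 at 'trough'. The strains overlapped at 'peak' only through BPH/2J mouse 6, which lay below BPN/3J mice 5 and 6. At 'peak', *Gal* was 0.88 higher in BPH/2J than in BPN/3J (SE 0.20, interval 0.47 to 1.30, 1.85-fold, limma adjusted p = 0.0322), and 0.616% of all probesets were called higher in BPH/2J in this comparison. At 'trough' the strain difference was 0.28 (SE 0.28, interval -0.31 to 0.87, limma adjusted p = 0.742). The 'peak' difference was 0.58 and not called with the lower-numbered 'peak' mice (limma adjusted p = 0.269). With the higher-numbered mice, chosen after seeing the data, it was 1.503 and called (limma adjusted p = 0.0353). With the mouse number as a block it was 0.61 (limma adjusted p = 0.468). The block fit kept only the 12 mice whose number occurs in both strains at the same time, so it also changed the mice compared. The call of *Gal* at 'peak' was lost when only the 2 groups compared were fitted (limma adjusted p = 0.106) and in 9 of the 18 fits that left out 1 mouse (limma adjusted p 0.0505 to 0.0870), namely without BPH/2J 'peak' mice 4, 5, 7, 8 or 9 or BPN/3J 'peak' mice 7, 8, 10 or 11. Within BPH/2J, the 'peak' minus 'trough' difference of *Gal* was 0.67 (SE 0.24, interval 0.16 to 1.19, limma adjusted p = 0.0987, and 0.0322 with only these 2 groups fitted), and within BPN/3J the difference was 0.07 (SE 0.24, interval -0.45 to 0.58).

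*Cartpt*, the precursor of the CART peptides, had 'peak' minus 'trough' differences above 0 in both strains, and both missed the threshold. Signals in BPH/2J were 8.79, 8.92, 8.66, 8.58, 9.13 and 8.40 at 'peak' and 8.05, 8.34 and 8.29 at 'trough', without overlap. Signals in BPN/3J were 9.27, 9.01, 9.04, 8.81, 8.93 and 8.50 at 'peak' and 8.71, 8.44 and 8.67 at 'trough', with overlap only through mouse 11. The 'peak' minus 'trough' difference was 0.52 in BPH/2J (SE 0.16, interval 0.18 to 0.85, limma adjusted p = 0.0513) and 0.32 in BPN/3J (SE 0.16, interval -0.02 to 0.65, limma adjusted p = 0.143). The BPH/2J difference was called with dim probesets left out (limma adjusted p = 0.0289), with a trended and robust prior (0.0432) and with array weights (0.00508), and the BPN/3J difference with array weights (0.52, limma adjusted p = 0.000483). With only the lower-numbered 'peak' mice both were called (limma adjusted p = 0.0115 in BPH/2J and 0.0162 in BPN/3J). The strain difference had a negative estimate at both times, at -0.18 at 'peak' (interval -0.45 to 0.09) and -0.38 at 'trough' (interval -0.76 to 0.01, limma adjusted p = 0.490).

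*Pdyn*, the prodynorphin gene, was low in all 3 BPH/2J mice at 'trough'. It was 7.26, 7.15 and 7.15 there, and 7.76, 7.54, 7.69, 7.41, 7.47 and 7.64 in the same strain at 'peak', so that these groups did not overlap. In BPN/3J it was 7.80, 7.57, 7.48, 7.69, 6.93 and 7.16 at 'peak' and 7.25, 7.66 and 7.76 at 'trough', with wide overlap. The 'peak' minus 'trough' difference was 0.40 in BPH/2J (SE 0.16, interval 0.06 to 0.74, limma adjusted p = 0.141, and 0.0301 with only these 2 groups fitted) and -0.11 in BPN/3J (SE 0.16, interval -0.46 to 0.23, limma adjusted p = 0.619). The strain difference was 0.14 at 'peak' (interval -0.14 to 0.42) and -0.37 at 'trough' (interval -0.77 to 0.02).

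*Nts* and *Lhx9* had no called difference in any comparison. In BPH/2J at 'peak', *Nts* ran from 7.16 to 8.01 (median 7.59), and at 'trough' from 7.07 to 7.40. In BPN/3J at 'peak' it ran from 6.89 to 8.12 (median 7.72), and at 'trough' from 7.20 to 7.56. The *Nts* differences lay between -0.15 and 0.34 in the 4 simple comparisons, each with a 95% interval that included 0. *Lhx9* at 'peak' ran from 7.44 to 8.16 in BPH/2J (median 8.05) and from 6.88 to 8.49 in BPN/3J (median 8.02). At 'trough' it ran from 7.79 to 7.96 in BPH/2J and from 7.71 to 7.98 in BPN/3J. Its differences in the same comparisons lay between 0.03 and 0.09, with intervals as wide as -0.59 to 0.72.

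Taking the 7 genes as a list, 2 were called higher at 'peak' than at 'trough' in BPH/2J (*Hcrt* and *Pmch*), where 4.25% of all probesets were called higher. The median difference of the list was 0.52, against -0.02 over all probesets. Its groups did not overlap, with 'peak' higher, for 5 of the 7 (*Hcrt*, *Pmch*, *Gal*, *Cartpt* and *Pdyn*), as was so for 8.19% of all probesets. In BPN/3J, 0 of the 7 were called and 0 passed an unadjusted limma p of 0.05, although 25.3% of all probesets were called there in either direction. The groups overlapped for all 7 genes in BPN/3J, while 11.6% of all probesets were higher at 'peak' without overlap. The list's median difference in BPN/3J was 0.21. Markers of other cell types also differed in BPH/2J. Of 7 endothelial markers, 2 were called lower at 'peak' (*Flt1* and *Kdr*), where 4.39% of all probesets were called lower, and their mean centred level lay between -0.26 and 0.08 at 'peak' and between 0.17 and 0.26 at 'trough'. The mean of 7 microglia markers lay between -0.045 and 0.083 at 'peak' and between 0.093 and 0.12 at 'trough', without overlap, with 1 gene called higher (*P2ry12*) and 1 lower (*Csf1r*). Of 7 astrocyte markers 1 was called lower (*Slc1a2*). Of 8 neuron markers 1 was called higher (*Stmn2*), while 5 of the 8 had an estimate below 0 and the median was -0.14. The part of these shifts in the *Hcrt* and *Pmch* differences was not tested.

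Between the strains, 1 of the 7 was called at 'peak' (*Gal*, higher in BPH/2J), where 0.616% of all probesets were called higher. The list's median difference at 'peak' was 0.14, against -0.006 over all probesets. At 'trough', 0 of the 7 were called (0 at an unadjusted limma p under 0.05), where 0.529% of all probesets were called in either direction, and the median was -0.15. At 'trough' the strains did not overlap for *Gal*, which was higher in BPH/2J as were 11.1% of all probesets without overlap, and for *Cartpt*, which was lower in BPH/2J as were 8.73%.

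**Figure D2:**
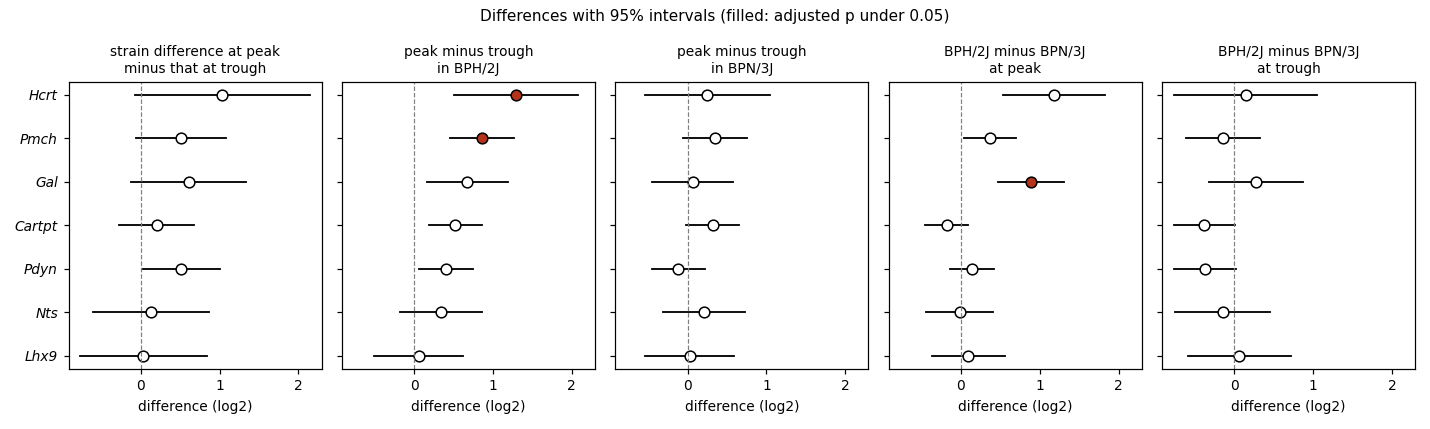
Differences on the log2 scale (horizontal axes) with 95% intervals for the 7 genes in each of the 5 comparisons, with filled points for a limma adjusted p under 0.05. *Hcrt* (1.29) and *Pmch* (0.86) are filled for 'peak' minus 'trough' in BPH/2J and *Gal* (0.88) for the strains at 'peak', while no point is filled in the other 3 panels.

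Whether the strains differed in their 'peak' to 'trough' change was tested directly, as the strain difference at 'peak' minus that at 'trough' (the quantity whose fold is the adjusted fold difference, *aFD*). None of the 7 passed, and 0% of all probesets did (smallest limma adjusted p of any probeset 0.177). At an unadjusted limma p under 0.05 there were 2890 probesets, and *Pdyn* was the only member among them (0.52, SE 0.23, interval 0.03 to 1.00, limma adjusted p = 0.596). For *Hcrt* the estimate was 1.03 (SE 0.53, interval -0.08 to 2.15, *aFD* 2.05, limma adjusted p = 0.611), so a call within BPH/2J and none within BPN/3J did not amount to a called difference between the strains. It was 0.43 with the lower-numbered 'peak' mice alone and 2.24 with the higher-numbered mice alone. The higher-numbered mice were chosen after seeing the data and include BPN/3J 'peak' mouse 11, which had the lowest *Hcrt* value.

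For *Gal* the estimate was 0.61 (SE 0.34, interval -0.12 to 1.33, *aFD* 1.52), and for *Pmch* it was 0.51 (SE 0.27, interval -0.06 to 1.09, *aFD* 1.43). With array weights the estimate was 0.18 for *Pmch* and 0.63 for *Hcrt*. *Cartpt* (0.20), *Nts* (0.13) and *Lhx9* (0.03) lay closer to 0. All 7 estimates were above 0, with a median of 0.51 against -0.01 over all probesets. At the study's fold criterion of 1.5, *Hcrt* and *Gal* passed, as did 1.46% of all probesets in that direction. The study drew its list of such genes, which names *Hcrt*, from these same arrays, so presence on it is not independent evidence. The study also measured *Hcrt* by quantitative PCR. It reported a higher level in BPH/2J at 'peak' than in BPH/2J at 'trough' or BPN/3J at 'peak'. Those PCR values were not part of the data used here. BPN/3J 'trough' mouse 3, with the highest pituitary markers, is in 1 of the 4 groups behind this quantity. Without this mouse the estimate was 1.08 for *Hcrt*, 0.63 for *Pmch* and 0.54 for *Gal*.

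The 7 genes differed in how far mice of a group varied. The residual SD of *Hcrt* was 0.57, and only 4.59% of all probesets had a larger one. It was 0.41 for *Lhx9* (12.9% larger), 0.37 for *Nts* (15.6%), 0.37 for *Gal* (16.0%), 0.29 for *Pmch* (24.5%), 0.24 for *Pdyn* (34.8%) and 0.23 for *Cartpt* (36.4%), and the median over all probesets was 0.20. All 7 therefore varied between mice more than the middle probeset did. BPN/3J 'peak' mouse 11 lay below its group mean in all 7 genes, and BPN/3J 'peak' mice 5 and 6, BPH/2J 'peak' mouse 4 and BPN/3J 'trough' mouse 4 lay above theirs in all 7.

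The genes were then compared across mice after each group's mean was removed. All 21 pairs had a positive correlation over the 18 mice (median Pearson's r 0.48). The share of positive pairs over all probesets was not counted, so this count is not a result about the members. At the median pair, *Nts* with *Lhx9*, 17.3% of the other single-symbol probesets followed *Nts* more closely than *Lhx9* did. For *Hcrt* with *Lhx9*, 49.9% followed *Hcrt* more closely. For *Pmch* with *Nts*, 0.185% followed *Pmch* more closely and 1% followed *Nts* more closely. After adjustment over the 21 pairs, 1 passed: *Pmch* with *Nts*, at r = 0.82 (permutation p = 0.00063, adjusted p = 0.0132) and Spearman's rho = 0.81 (adjusted permutation p = 0.0332). Without BPN/3J 'peak' mice 5 and 11, which lay farthest from the median of *Pmch*, r was 0.67. Among BPH/2J mice at 'peak' r was 0.77, and among BPN/3J mice at 'peak' 0.88. Its adjusted p was 0.106 without BPN/3J 'peak' mouse 11 and 0.0598 without mouse 5 of that group, and stayed under 0.05 without any single other mouse.

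*Gal* with *Lhx9* was the next closest pair, at r = 0.79 (permutation p = 0.00534, adjusted p = 0.0561) and rho = 0.74 (adjusted permutation p = 0.0451), and r fell to 0.58 without BPN/3J 'peak' mice 6 and 10. Of the 21 pairs, 7 had an unadjusted permutation p under 0.05 (*Pmch* with *Nts*, *Lhx9*, *Gal* and *Cartpt*, *Gal* with *Lhx9* and *Pdyn*, and *Pdyn* with *Lhx9*). None of the 7 included *Hcrt*. Its r with *Pmch* was 0.52 over all mice (permutation p = 0.0602, adjusted p = 0.141, rho 0.26 with permutation p = 0.339) and -0.10 without BPH/2J 'peak' mouse 6 and BPN/3J 'peak' mouse 11, so that the relation rested on those mice. Its r with *Pdyn*, which orexin neurons also express, was 0.20 (permutation p = 0.521, adjusted p = 0.576, rho 0.14 with permutation p = 0.585) and 0.07 without the same 2 mice. Its r with *Lhx9* was 0.08 (permutation p = 0.825, rho 0.17 with permutation p = 0.529) and -0.30 without them.

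Within the 'peak' groups the values differed between the strains, and this difference was not tested. In the 6 BPN/3J 'peak' mice all 21 pairs were positive with a median r of 0.74, and in the 6 BPH/2J 'peak' mice 8 of the 21 were negative with a median r of 0.21. *Pdyn* with *Lhx9* was the widest case, at 0.93 in BPN/3J and -0.44 in BPH/2J. The BPN/3J 'peak' group includes mouse 11, whose array correlated least with the others.

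**Figure D3:**
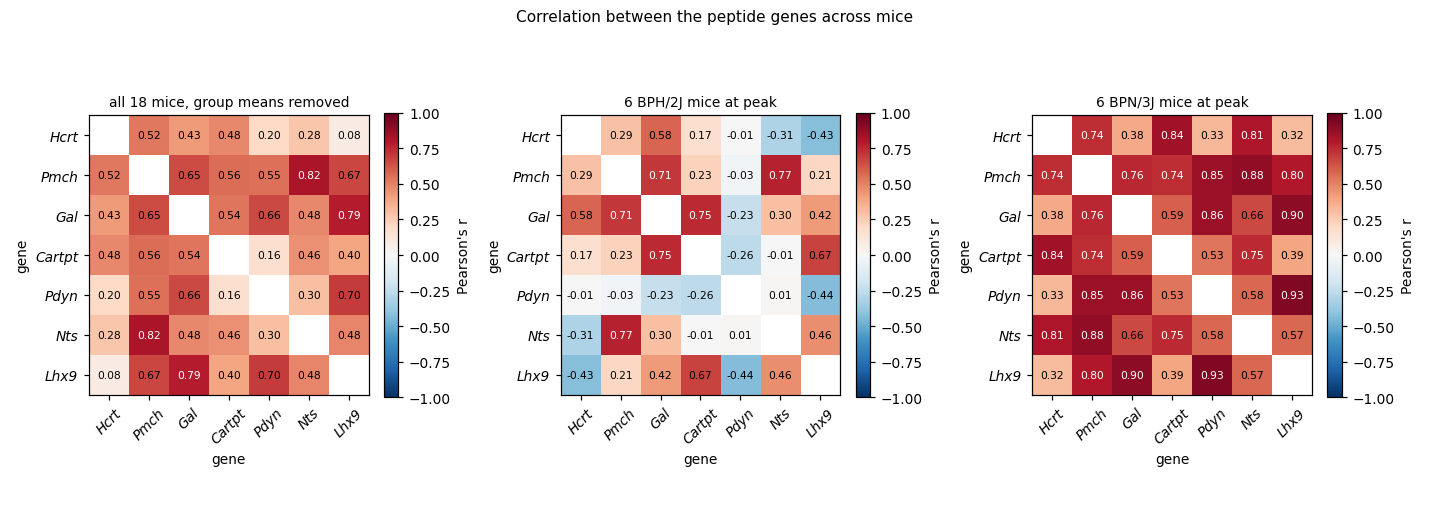
Pearson's r (colour scale and printed values) between the 7 genes (both axes) over all 18 mice with group means removed, and within the 6 BPH/2J and the 6 BPN/3J mice at 'peak'. The left panel is positive throughout (median 0.48), the BPH/2J panel has 8 negative pairs of 21, and the BPN/3J panel has none.

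The candidates were 12221 genes with a symbol of their own and a mean signal at or above the median of all probesets (6.26). Among them, the genes whose values followed each member most closely over the 18 mice, group means removed, were ranked by r as a description. For *Hcrt* they were *Zfp628* (0.87), *Ostm1* (0.86), *Basp1* (0.84), *Gorasp2* (0.84) and *Glp1r*, the receptor of glucagon-like peptide 1 (0.83). For *Pmch* they were *Cox19* (0.91), *Gspt2* (0.88), *Tspyl3* (0.88), the homeobox gene *Dlx1* (0.87) and *Bex2* (0.86). For *Gal* they were *Sgsm1* (0.93), the orphan receptor gene *Pgr15l* (0.92), the peptidase gene *Ecel1* (0.90), *Lrrtm1* (0.89) and *Trh*, which encodes thyrotropin-releasing hormone (0.89). None of the 5 closest genes of any member was another member.

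For *Nts* the closest gene was *Qpct* (0.96), which encodes the glutaminyl cyclase that caps peptides such as neurotensin and orexin-A, followed by *Arxes1* (0.94), *Rnf41* (0.92), *Impact* (0.92) and *Psmc2* (0.92). For *Lhx9* the 3 closest were genes of the ZIC zinc finger family, *Zic1* (0.97), *Zic5* (0.96) and *Zic4* (0.96), followed by *Cdh2*, which encodes N-cadherin (0.93), and *Plxnc1* (0.91). *Zic1* is also on the list of thalamus and zona incerta markers, and the r of *Lhx9* with the mean of those 12 markers was 0.76 (permutation p = 0.00247, adjusted p = 0.0521 over 105 relations between members and lists), with rho 0.67 (permutation p = 0.00411) and 0.41 without the 2 farthest mice. For *Pdyn* the closest were *Filip1* (0.89), the homeobox gene *Dlx5* (0.89), *Arid1b* (0.87), *Glg1* (0.87) and *Cap2* (0.86), and for *Cartpt* they were *Vps11* (0.84), *Elac1* (0.84), *Klhl33* (0.81), *Zfp777* (0.80) and *Klf6* (0.77).

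Of the 105 relations between the 7 members and the means of 15 gene lists, 1 passed adjustment. This was *Hcrt* with the mean of 11 genes of peptide processing and secretory granules (r = 0.77, permutation p = 0.00036, adjusted p = 0.0378, rho 0.77 with permutation p = 0.00064), and r was 0.51 without the 2 farthest mice. Other relations gave values of similar or larger size that missed the threshold. With the mean of 26 other hypothalamic neuropeptides, r was 0.82 for each of *Pmch*, *Nts* and *Gal* (adjusted permutation p = 0.0521 each). Without the 2 farthest mice these were 0.73, 0.76 and 0.75. With 20 hypothalamic transcription factors, r was 0.79 for *Gal* and 0.78 for *Pdyn* (adjusted permutation p = 0.0521 each), and 0.81 and 0.72 without the 2 farthest mice. *Hcrt* had an r of 0.70 with genes linked to MCH neurons (adjusted permutation p = 0.121), 0.68 with the receptors (0.0521), 0.66 with general neuron markers (0.121) and 0.60 with genes linked to orexin neurons (0.211), and the corresponding rho were 0.56, 0.53, 0.60 and 0.56 (unadjusted permutation p = 0.0222, 0.0349, 0.0147 and 0.0302). Without the 2 farthest mice these r were 0.47, 0.28, 0.57 and 0.65. The relation of *Hcrt* is thus not shown to be particular to the granule genes, nor relations of this size to be particular to *Hcrt*.

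The receptors of these peptides were measured by 10 of 10 listed genes, of which 2 were called between 'peak' and 'trough' in each strain. Over all probesets, 8.64% were called in either direction in BPH/2J and 25.3% in BPN/3J, so that 2 of 10 was not above the share of all probesets in BPN/3J. At 'peak' against 'trough' in BPH/2J, the kappa opioid receptor gene *Oprk1*, whose product binds dynorphin, was 0.64 higher (SE 0.18, limma adjusted p = 0.0348), and *Sort1*, which encodes the neurotensin-binding protein sortilin, was 0.47 lower (difference -0.47, SE 0.13, limma adjusted p = 0.0264). *Sort1* was 9.83 to 10.24 at 'peak' (median 9.96) and 10.43 to 10.51 at 'trough' in BPH/2J, without overlap, and *Oprk1* was 7.49 to 8.30 (median 8.05) and 7.20 to 7.43, also without overlap, where 9.55% of all probesets were lower and 8.19% higher without overlap. In BPN/3J, *Hcrtr2*, the orexin receptor that binds both orexins, was 0.55 higher at 'peak' (SE 0.19, limma adjusted p = 0.0458), at 6.52 to 7.25 against 6.33 to 6.35 at 'trough'. The galanin receptor gene *Galr3* differed by -0.50 in BPN/3J (SE 0.13, limma adjusted p = 0.0128).

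*Hcrtr2* in BPH/2J had a difference of 0.49 (SE 0.19, limma adjusted p = 0.132), close in size to that of BPN/3J, and *Oprk1* in BPN/3J had 0.48 (limma adjusted p = 0.0592). In neither the strain comparisons nor the test of the strain by time difference was any of the 10 receptors called (1 of 10 at an unadjusted limma p under 0.05 in each of the 3). *Hcrtr1*, the receptor that prefers orexin-A, had a strain difference of -0.33 at 'peak' (limma adjusted p = 0.362), opposite in sign to that of *Hcrt*. Its mean was also lower in BPH/2J at 'trough' (6.74 against 7.02 in BPN/3J), so the lower estimate was not particular to 'peak'.

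**Figure D4:**
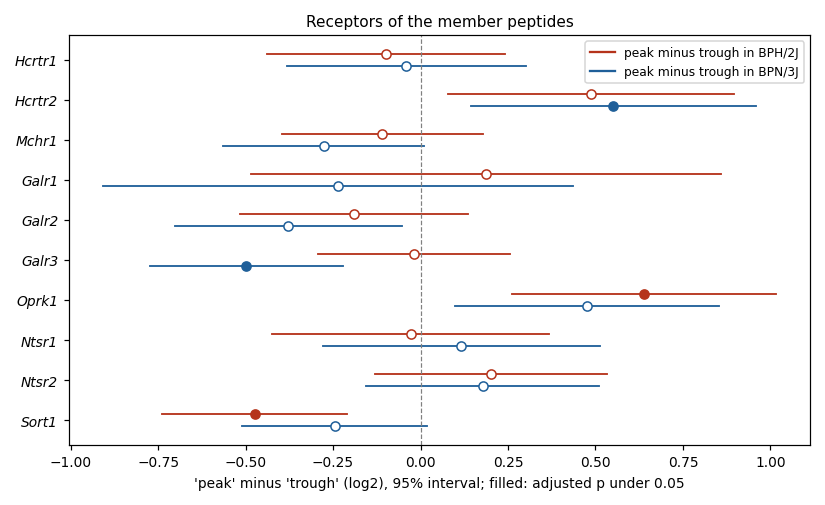
Differences on the log2 scale between 'peak' and 'trough' (horizontal axis, 95% intervals) for the 10 receptor genes (vertical axis) in BPH/2J (red) and BPN/3J (blue), filled where the limma adjusted p was under 0.05. *Oprk1* (0.64) and *Sort1* (-0.47) are filled in BPH/2J, and *Hcrtr2* (0.55) and *Galr3* (-0.50) in BPN/3J.

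Of 12 genes of peptide processing and secretory granules, 11 were measured. The proprotein convertase gene *Furin* was lower at 'peak' in both strains (-0.49 in BPH/2J, limma adjusted p = 0.00836, and -0.40 in BPN/3J, limma adjusted p = 0.0128). The granule protein gene *Scg3* was 0.33 higher at 'peak' in BPN/3J (limma adjusted p = 0.0299). *Chga*, which encodes chromogranin A, was 0.50 higher in BPH/2J than in BPN/3J at 'peak' (limma adjusted p = 0.0110), where 0.616% of all probesets were called higher. Its mean was also higher in BPH/2J at 'trough' (10.49 against 10.09), where no gene of this list was called. Among 10 genes linked to orexin neurons, *Slc17a6*, the vesicular glutamate transporter gene, was 0.31 higher (limma adjusted p = 0.0390) at 'peak' in BPN/3J. *Hmx2* differed by -0.50 there (limma adjusted p = 0.0141). In BPH/2J, 0 of the 10 were called (2 of 10 at an unadjusted limma p under 0.05). Over all probesets, 25.3% were called in either direction in BPN/3J and 8.64% in BPH/2J, so neither count was above the share of all probesets. Among 7 genes linked to MCH neurons, 0 were called in any of the 5 comparisons (at most 2 at an unadjusted limma p under 0.05, in BPN/3J).

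Other hypothalamic neuropeptides, measured by 26 genes, were taken as a further list. At 'peak' against 'trough' in BPH/2J, 0 of the 26 were called (4 at an unadjusted limma p under 0.05), where 8.64% of all probesets were called in either direction. The median difference was 0.20. Some single estimates were larger than that of *Pmch* with larger errors, at 1.04 for *Npvf* (SE 0.41, limma adjusted p = 0.127) and 1.00 for *Oxt* (SE 0.55, limma adjusted p = 0.299). The mean centred level of the 26 genes lay between -0.061 and 0.29 at 'peak' and between -0.14 and -0.083 at 'trough' in BPH/2J, without overlap. No test compared this list with the members. In BPN/3J, 2 were called higher (*Tac1*, 0.71, and *Adcyap1*, 0.68) and 2 lower (*Kiss1*, -0.59, and *Qrfp*, -0.49). There 25.3% of all probesets were called in either direction, so these calls were not above the share of all probesets. None of the members was called in BPN/3J. In the strain by time difference, 19 of the 26 had a positive estimate with a median of 0.17, and 0 were called (2 at an unadjusted limma p under 0.05).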

How the data were processed

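The deposited values were log2 signals of 18 Affymetrix Mouse Gene 1.0 ST arrays, made by the authors with robust multi-array analysis (RMA), which the submitters' processing notes name beside limma without versions. The genome build was not given in the sources used here. Probesets were named through GEO's platform annotation (21640 of 34760 with a single symbol), and upstream stretches came from RefSeq, GRCm38.p6.

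Groups followed the sample titles, since the strain label of the BPN 'trough' samples contradicts them. Differences were fitted in limma 3.58.1 (R 4.3.3) with 4 group means and 14 residual degrees of freedom, and adjusted over all probesets. Correlations used values with group means removed and 100000 permutations of mice within groups. Fits and permutation tests were checked on simulated data. Each array was a separate mouse, and the number of arrays (3 or 6 per group) limits the precision. Residuals of same-numbered mice of the 2 strains correlated between -0.30 and 0.19 in 6 pairs, and numbers were not used for pairing in the main fit. The text names the 7 members, the 5 genes that followed each most closely by r, and members of 15 gene lists. Members and lists were chosen with earlier results of these data known. The alternatives tried are given in the closing section.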

Additional observations from a re-analysis of the deposited data

Results flagged for a closer look

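*Hcrt* in BPN/3J 'peak' mouse 11 stood far below the rest of its group, at a log2 signal of 7.71 where the next lowest of the 6 mice had 9.07. The gap took up 0.825 of the range of the group, more than Dixon's criterion allows for 6 samples. The criterion was applied to 14 groups (7 genes in each 'peak' group), and chance alone passes about 1 in 20. Without this mouse the strain difference of *Hcrt* at 'peak' was 0.93 (limma adjusted p = 0.103), and the estimate of the strain by time difference was 0.78. Its array also had the lowest mean correlation with the others, at 0.963.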

How the results depend on the processing

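Of 1029 refitted member differences, 927 were counted as keeping direction and side of the threshold. A call was gained in 26 and lost in 24, and 52 changed sign. Of 504 refitted pair correlations, 472 kept direction and side and 11 changed sign. Most of these were uncalled in the main fit and could not lose a call, so the counts do not measure how stable the calls were. Group medians, which had no test, counted as kept within the gene's residual SD. The calls of *Hcrt* in BPH/2J and *Gal* at 'peak' were each lost in 9 of 18 fits without 1 mouse, and that of *Pmch* in 1. The mean of a gene's probesets gave no separate value, because each member has 1 probeset. With fitted array weights, 5 members were called in BPH/2J between 'peak' and 'trough', 3 in BPN/3J and 1 between strains at 'trough', among them *Cartpt* in both strains and *Pmch* (0.72, limma adjusted p = 0.000134) and *Nts* in BPN/3J, and the signs turned for *Cartpt* (-0.033), *Nts* (-0.10) and *Lhx9* (-0.13) in the strain by time difference, *Lhx9* (-0.076) between strains at 'peak', and *Nts* (0.070) and *Pmch* (0.039) between strains at 'trough'. With lower-numbered 'peak' mice only, 5 were called in BPH/2J, 3 in BPN/3J and 0 between strains at 'peak', with *Lhx9* at -0.18 and *Pdyn* at -0.038 between strains at 'peak', *Lhx9* at -0.25 in the strain by time difference and *Pdyn* at 0.082 in BPN/3J. With higher-numbered 'peak' mice only, a choice made after seeing the data, the BPN/3J difference was -0.48 for *Gal*, -0.20 for *Hcrt*, -0.70 for *Lhx9*, -0.14 for *Nts* and -0.12 for *Pmch*, the BPH/2J difference -0.11 for *Lhx9* and -0.032 for *Nts*, and *Cartpt* 0.056 between strains at 'peak'. Median centring gave 8 covarying pairs, *Lhx9* -0.0052 in the strain by time difference and *Nts* 0.021 between strains at 'peak'. Quantile normalization gave *Lhx9* -0.013 between strains at 'trough' and -0.075 in BPN/3J, and *Nts* 0.013 between strains at 'peak'. Leaving out dim probesets called 2 members between strains at 'peak' (*Hcrt* and *Gal*), and fitting only the 2 groups compared called 0 there. Within BPH/2J the fit of 2 groups called 3 members, losing *Hcrt* (limma adjusted p = 0.0543) and gaining *Gal* (0.0322) and *Pdyn* (0.0301). Spearman's rho gave 2 covarying pairs. The cause of these shifts was not tested. The share of all probesets called was not counted for any refit in this section. A change in the number of members called is therefore not a result about the members.

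With the mouse number as a replicate block (12 arrays in 6 pairs), 0 members were called between strains at 'peak', and the values were -0.17 for *Lhx9* and -0.11 for *Pdyn* there and -0.36 for *Lhx9* and -0.011 for *Nts* in the strain by time difference. Residuals of same-numbered mice correlated between -0.30 and 0.19, and 6 pairs are too few to show whether a shared number marks anything more.

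Without the 2 least correlated arrays, 0 members were called between strains at 'peak', 1 in BPN/3J, and 0 pairs covaried. The values were -0.0024 for *Lhx9* between strains at 'peak' and -0.0032 in the strain by time difference, -0.091 for *Nts* in the latter, and r of *Hcrt* was -0.21 with *Lhx9*, -0.14 with *Nts* and -0.063 with *Pdyn*. Without the 4 higher-numbered 'peak' mice, chosen after seeing the data like the choroid plexus covariate, 3 pairs covaried, and r of *Cartpt* was -0.22 with *Lhx9* and -0.030 with *Pdyn*. Leaving out each mouse in turn called 0 to 3 members in BPH/2J (0 without BPH/2J 'trough' mouse 1), 0 to 2 in BPN/3J and 0 to 2 between strains at 'peak', and gave 0 to 4 covarying pairs. These fits ranged from -0.16 to 0.16 for *Lhx9* and from -0.014 to 0.24 for *Nts* in the strain by time difference, from -0.10 to 0.22 for *Lhx9* and -0.16 to 0.085 for *Nts* between strains at 'peak', from -0.076 to 0.21 for *Gal* and -0.10 to 0.22 for *Lhx9* in BPN/3J, and r from -0.031 to 0.27 for *Cartpt* with *Pdyn*, -0.20 to 0.30 for *Hcrt* with *Lhx9*, -0.028 to 0.42 for *Hcrt* with *Pdyn* and -0.15 to 0.44 for *Hcrt* with *Nts*. With 3 mice per 'trough' group, intervals of *Hcrt* differences spanned over 1 log2 unit.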
